A study of Homo sapiens with 6 samples.

Results

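The guide arms of 2 groups of retinal miRNAs were followed in small RNA libraries of the human cell line MIO-M1, which derives from Müller glia of the retina, and of the extracellular vesicles (EV) that it released. The groups are the miR-183 cluster, represented by hsa-miR-182-5p, hsa-miR-183-5p and hsa-miR-96-5p, and the pair of miR-204 and miR-211, represented by hsa-miR-204-5p and hsa-miR-211-5p. These 5 members were taken by name from the 2576 mature miRNAs listed in the deposited tables. The whole cell group held 3 libraries, from passages 22, 24 and 26, and the EV group held 3, from passages 23, 25 and 27. Replicates 1, 2 and 3 of a group follow its passages. All 6 samples came from this one cell line, labelled WT, and cells were grown in DMEM with 10% FCS. EV were taken from medium that the labels call serum-free and the methods vesicle-depleted, and the methods describe RNase A treatment of intact EV. RNA came from cells by an RNeasy kit and from EV by a Total Exosome RNA Isolation Kit, so that the kit and the fraction cannot be told apart in any difference between the groups. The labels name passages but not separate cultures, so the tests measure the spread between these samples only.

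The miR-183 cluster is best known from sensory cells. Its hairpins are transcribed as one precursor that is abundant in photoreceptors, in inner ear hair cells and in other sensory neurons, and in the mouse retina its level follows light and dark adaptation. miR-204 and miR-211 lie in introns of TRPM3 and TRPM1, genes for cation channels of the TRP family. miR-204 is abundant in the pigment epithelium, lens and ciliary body and is also found in Müller glia, whereas miR-211 marks pigmented cells, where TRPM1 is driven by the transcription factor MITF. A miRNA pairs with its targets mainly through its seed, bases 2 to 8 counted from the 5′ end, and miRNAs with one seed share many targets.

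The mature sequences are shown because they set which members can be told apart by their reads and which share targets. They were taken from RefSeq (GRCh38.p14), which held all 5, and the seed is in capitals. All lie on the minus strand, miR-182-5p at chr7:129770447-129770470, miR-96-5p at chr7:129774739-129774761, miR-183-5p at chr7:129774967-129774988, miR-204-5p at chr9:70810031-70810052 and miR-211-5p at chr15:31065095-31065116. The relative hsa-miR-1271-5p, on the plus strand at chr5:176367960-176367981, is added because it was the only other listed miRNA with a sequence whose seed equals that of a member.
hsa-miR-182-5p: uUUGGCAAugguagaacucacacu
hsa-miR-183-5p: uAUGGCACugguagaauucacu
hsa-miR-96-5p: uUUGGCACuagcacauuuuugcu
hsa-miR-1271-5p: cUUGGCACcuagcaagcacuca
hsa-miR-204-5p: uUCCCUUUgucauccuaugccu
hsa-miR-211-5p: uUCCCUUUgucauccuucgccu

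Within the cluster, miR-182-5p and miR-183-5p had the same base at 18 of 22 positions, but none of the 3 seeds was equal over bases 2 to 8. miR-182-5p and miR-96-5p shared bases 2 to 7. miR-204-5p and miR-211-5p had one seed and differed at 2 of 22 positions, A17U and U18C, counted from the 5′ end with the base of miR-204-5p first. The mismatches that the alignment allowed are not given in the sources used here, so low counts of miR-211-5p beside high counts of miR-204-5p are uncertain. miR-182-5p starts 4520 bases from miR-183-5p and miR-96-5p starts 228 bases from it. GENCODE 29 has no other gene over the cluster's mature sequences, and it places miR-204-5p in an intron of TRPM3 and miR-211-5p in an intron of TRPM1, each on the strand of its host gene. The deposited tables use coordinates of another build, which their header does not name.

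Whole cell replicate 1 was the shallowest library, with 396025 counts in total, and whole cell replicate 2 the deepest, with 3990900, and the EV libraries lay between 1225541 and 3134561. For a miRNA without counts, the limit was set at 3 counts, between 0.752 and 7.58 CPM (the usual counts per 1e6 total counts) across the libraries. This limit and all intervals cover counting error only. CPM were computed on the total of each table. A read covers a whole mature miRNA, so that levels were compared between miRNAs without scaling by length, although the efficiency with which each sequence enters a library was not measured. The test was limited to miRNAs with 5 CPM or more in 3 or more libraries, and 430 met this, among them 4 of the 5 members. miR-211-5p did not.

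Of the cluster, all 3 guide arms were counted in every whole cell library. miR-182-5p, the most abundant of them, had 85, 612 and 161 counts in whole cell replicates 1, 2 and 3, which is 215, 153 and 129 CPM. In EV replicates 1, 2 and 3 it had 819, 1541 and 2743 counts, or 668, 756 and 875 CPM. The groups were apart, and the gap between the lowest EV level and the highest level in cells was wider than the range within either group.

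miR-183-5p had 37, 398 and 115 counts in whole cell replicates 1, 2 and 3, or 93.4, 99.7 and 91.8 CPM. In EV it had 592, 851 and 946 counts, or 483, 417 and 302 CPM. The groups did not overlap. On the CPM scale the order of the EV libraries was opposite to that of miR-182-5p, with replicate 3 lowest for miR-183-5p and highest for miR-182-5p.

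miR-96-5p was close to the limit of detection. It had 10, 29 and 8 counts in whole cell replicates 1, 2 and 3, or 25.3, 7.27 and 6.39 CPM. In EV it had 91 counts in replicate 2, or 44.6 CPM, and 0 in replicates 1 and 3. A count of 0 allowed up to 2.45 CPM in EV replicate 1 and 0.957 CPM in EV replicate 3, where the level of EV replicate 2 would have given 54.7 and 139.9 counts. The EV libraries thus lay on both sides of the whole cell libraries. This on-and-off pattern was common in EV and rare in cells. Of the 430 tested miRNAs, 113 (26.3%) were at 0 in one EV library and at 20 CPM or more in another. Among whole cell libraries this held for 2 (0.465%). A miRNA can pass the filter on low counts through the libraries of one group alone, and is then at 0 in none of them. The shares thus depend in part on the filter.

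**Figure D1:**
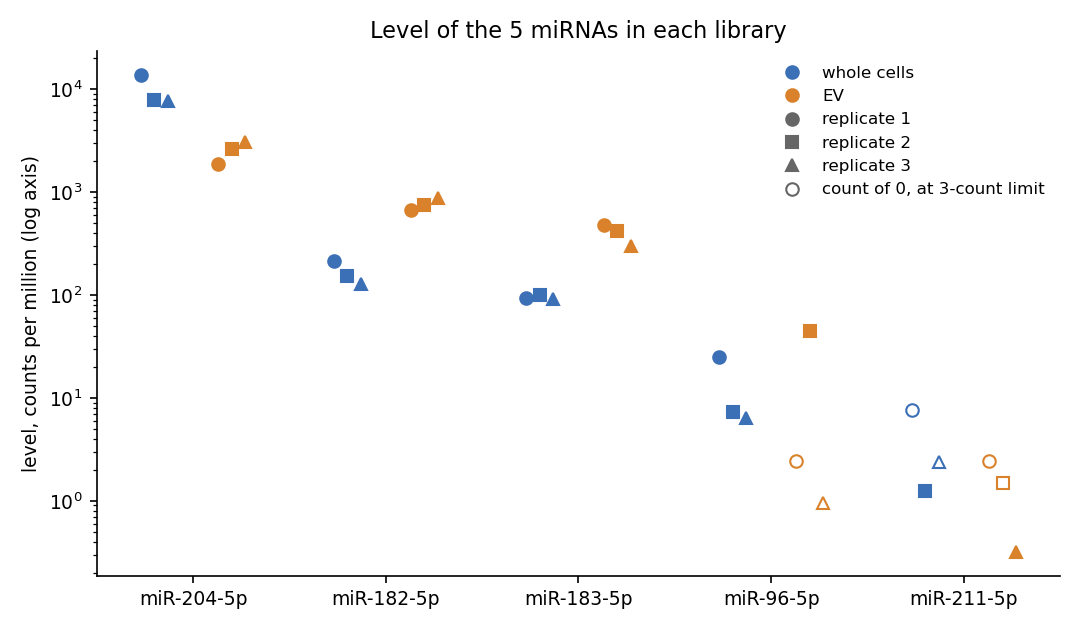
Level of each of the 5 miRNAs in CPM (log axis) in the 3 whole cell and 3 EV libraries, with 1 point for each library and open points for counts of 0, drawn at the level that 3 counts would give. miR-204-5p is the highest in all 6 libraries, its EV points lie below its whole cell points, and miR-182-5p and miR-183-5p show the opposite order.

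miR-204-5p was the most abundant member in all 6 libraries. It had 5498, 31456 and 9554 counts in whole cell replicates 1, 2 and 3, which is 13883, 7882 and 7630.1 CPM, and it ranked 18, 28 and 26 among the miRNAs of those libraries. In EV replicates 1, 2 and 3 it had 2282, 5396 and 9735 counts, or 1862, 2647 and 3106 CPM, and ranked 54, 55 and 47. All EV levels were below all levels in cells, and whole cell replicate 1, the library with the lowest total, stood above the others.

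miR-211-5p had 5 counts in whole cell replicate 2, 1 count in EV replicate 3 and 0 in the other libraries. It made up 0.0159% of the counts of the pair in whole cell replicate 2 (95% Wilson interval 0.00679% to 0.0372%). Over the summed libraries its CPM in cells was 5.67 times that in EV, with an exact 95% counting interval of 0.635 to 268, so no difference between the groups was detectable at this depth. The seed of the pair was represented almost only by miR-204-5p.

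The order of the levels in every whole cell library was miR-204-5p, miR-182-5p, miR-183-5p, miR-96-5p and miR-211-5p. In EV the first 3 kept this order in every library, and miR-96-5p and miR-211-5p overlapped. miR-204-5p had between 51.4 and 64.7 times the counts of miR-182-5p in whole cells and between 2.79 and 3.55 times in EV. miR-182-5p had between 1.40 and 2.30 times the counts of miR-183-5p in whole cells and between 1.38 and 2.90 times in EV. Under each rule tried for detection, 4 of the 5 members were found in every whole cell library and 3 in every EV library, the difference being miR-96-5p.

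The 430 tested miRNAs were fitted in edgeR with TMM scaling and a quasi-likelihood test of EV against whole cells, with Benjamini-Hochberg adjustment over all 430. miR-182-5p rose in EV by a log2 value of 2.26 (standard error 0.39, edgeR adjusted p = 0.00872), a 4.78-fold difference. miR-183-5p rose in EV by a log2 value of 2.07 (standard error 0.49, edgeR adjusted p = 0.0171), or 4.21-fold. miR-204-5p fell by 1.90 on the log2 scale (standard error 0.33, edgeR adjusted p = 0.00872), and its level was 3.73-fold higher in whole cells. For miR-96-5p the log2 fold change was 0.09 with a standard error of 2.03 (edgeR adjusted p = 0.985), so that a difference of several fold in either direction was within its error. In bulk libraries such as these, fewer cells or vesicles that hold a miRNA and less of it in each cannot be told apart.

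At an adjusted p below 0.05, the limit used for these statements, 2 of the 4 tested members were higher in EV, against 14.7% of all 430 tested miRNAs, and 1 was lower, against 14.0%. Both shares include miRNAs that passed the filter through 1 group alone, such as miR-451a without whole cell counts and miR-129-5p without EV counts. The 3 members called were counted in all 6 libraries, so these shares are not of like miRNAs. The median log2 fold change of all tested miRNAs was -0.23, and relative to it miR-182-5p was at 2.49, miR-183-5p at 2.31, miR-96-5p at 0.33 and miR-204-5p at -1.67. On TMM-scaled counts, 20.9% of the tested miRNAs had all EV libraries above all whole cell libraries and 27.4% had them below, and these included miR-182-5p and miR-183-5p above and miR-204-5p below. By size of the log2 fold change, miR-182-5p held place 70 and miR-183-5p place 77 from the top of the 430. At the stricter limits of an adjusted p below 0.01 and a log2 change of at least 2.5 in size, which 5.81% of tested miRNAs passed with edgeR and 16.7% with DESeq2, 0 of the 4 members passed with either tool. miR-182-5p and miR-204-5p met the limit on the edgeR p alone, and 3 of the 4 had an unadjusted p below 0.05, against 35.8% of all tested miRNAs.

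miR-183-5p did not stay below an adjusted p of 0.05 in every edgeR fit. The adjusted p was 0.0946 without whole cell replicate 2, 0.0914 without whole cell replicate 3 and 0.0964 without the filter on low counts. The log2 fold change of miR-96-5p turned negative without whole cell replicate 2 (-0.15) or 3 (-0.19), and also with RLE factors (-0.19) or in DESeq2 (-0.22). Without EV replicate 2, the only EV library that held it, miR-96-5p had no EV count left. The direction in that fit was thus fixed in advance (edgeR adjusted p = 0.0212). Its mean CPM in whole cells was 7.62 times the mean limit of 3 counts in the remaining EV libraries. miR-184, miR-29b-2-5p and miR-2116-3p, with EV counts in replicate 2 only, also passed 0.05 in that fit (edgeR adjusted p of 0.016 to 0.0163).

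**Figure D2:**
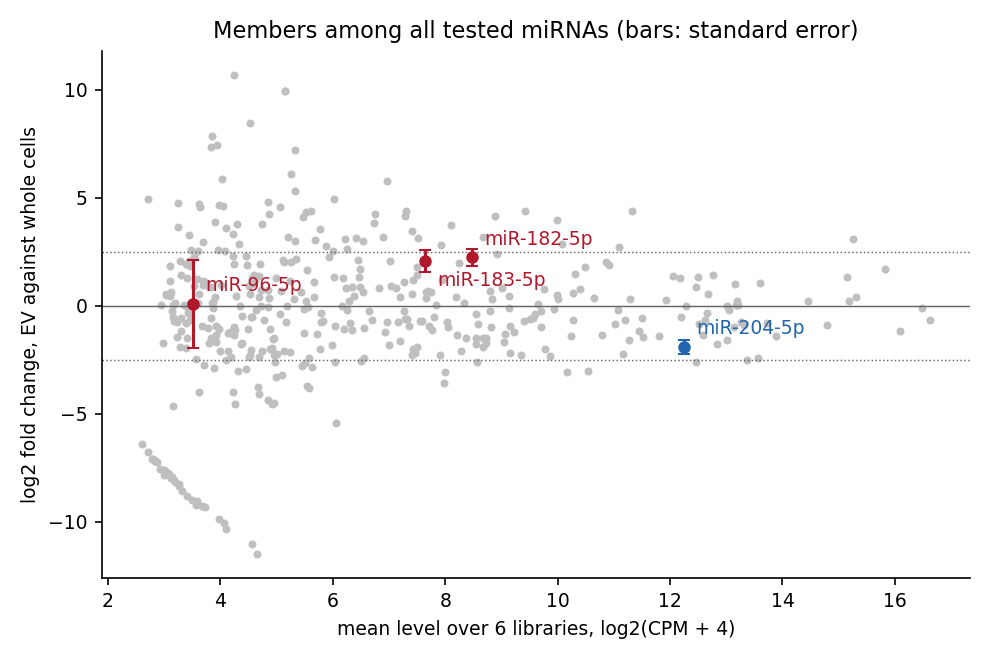
Log2 fold change of EV against whole cells (vertical axis) over mean level in log2(CPM + 4) for the 430 tested miRNAs in grey, with the 3 cluster members in red and miR-204-5p in blue, bars giving the standard error and dotted lines a log2 change of 2.5 in size. miR-182-5p and miR-183-5p lie near 2 and miR-204-5p near -2, inside the dotted lines, and the bar of miR-96-5p crosses 0.

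The 3 guide arms of the cluster together were at 333, 260.3 and 227 CPM in whole cell replicates 1, 2 and 3. In EV replicates 1, 2 and 3 they were at 1151, 1218 and 1177 CPM. The mean was 273 ± 54.5 CPM for whole cells and 1182 ± 33.6 CPM for EV (SD, n = 3 in each), 4.32 times as high. The groups did not overlap, and the difference was larger than the spread within either group (two-sided exact permutation test, p = 0.1, below which 3 samples against 3 cannot go). On the CPM scale the summed level varied less among EV libraries than those of miR-182-5p and miR-183-5p, which moved in opposite directions between EV replicates. With TMM scaling both were lower in EV replicate 2 than in EV replicate 1. In log2(CPM + 4), miR-182-5p was at 9.54 and 9.32 in EV replicates 1 and 2, and miR-183-5p at 9.07 and 8.47.

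The pair together was at 9799 ± 3539 CPM for whole cells and 2538 ± 629 CPM for EV (SD, n = 3 in each), the former 3.86 times the latter (two-sided exact permutation test, p = 0.1). The spread in whole cells came from replicate 1, at 13883 CPM, beside 7883 and 7630.1 CPM.

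The ratio of the cluster to the pair does not depend on scaling. It is made of the same counts as both sums above, so its test (two-sided exact permutation test, p = 0.1) is not independent of theirs. The ratio is therefore given as a description. For every 1000 counts of the pair there were 24.0, 33.0 and 29.7 counts of the cluster in the cell libraries, and 618, 460.2 and 379 in those of EV. As a log2 ratio, with 0.5 added to each sum, this was -5.12 ± 0.23 for whole cells and -1.07 ± 0.36 for EV (SD, n = 3 in each). The shift of 4.05 on the log2 scale, or 16.6-fold, left a gap between the groups. With each library left out in turn it lay between 3.86 and 4.21.

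**Figure D3:**
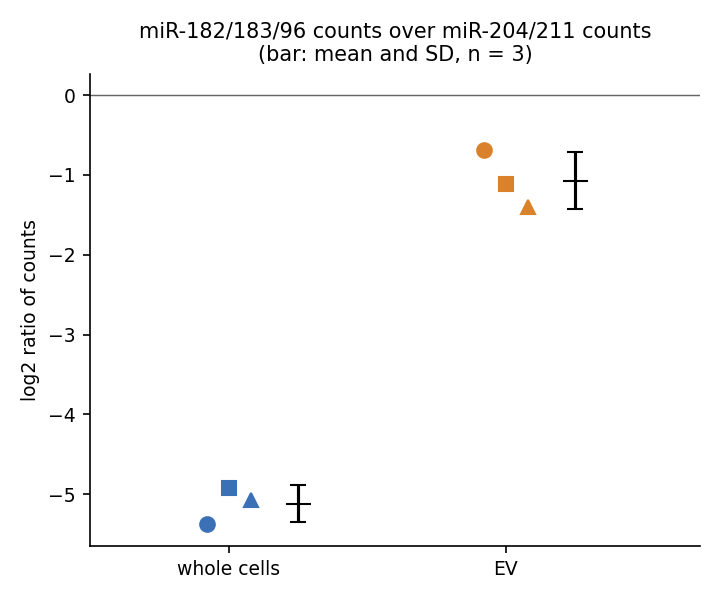
Log2 ratio of the summed counts of miR-182-5p, miR-183-5p and miR-96-5p to those of miR-204-5p and miR-211-5p in each whole cell and EV library, with the mean and SD (n = 3) beside the points. The whole cell libraries lie between -5.37 and -4.92 and the EV libraries between -1.40 and -0.69.

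The makeup of the cluster did not separate the groups. miR-182-5p made up 64.4%, 58.9% and 56.7% of the cluster's counts in whole cell replicates 1, 2 and 3, with 95% Wilson intervals of 55.9% to 72.0%, 55.9% to 61.9% and 50.9% to 62.3%. In EV replicates 1, 2 and 3 it made up 58.0%, 62.1% and 74.4%, with intervals of 55.5% to 60.6%, 60.1% to 64.0% and 72.9% to 75.7%. The mean share was 60.0% ± 3.97 for whole cells and 64.8% ± 8.50 for EV (SD, n = 3 in each, two-sided exact permutation test, p = 0.6). EV replicate 3 stood above the other libraries by more than counting error. miR-96-5p made up 7.58% of the cluster's counts in whole cell replicate 1 and 2.79% and 2.82% in replicates 2 and 3. It made up 3.66% in EV replicate 2, and its upper Wilson limit was 0.272% in EV replicate 1 and 0.104% in EV replicate 3.

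Of the other arms of the hairpins, which are usually degraded after the guide is loaded, those of the cluster and of miR-211 had at most 16 counts in a library, whereas miR-204-3p reached the level of the cluster's guide arms in cells. miR-182-3p had 16 counts in EV replicate 1, 1 in whole cell replicate 1 and 0 elsewhere. miR-183-3p had 1 count in whole cell replicates 2 and 3 each, and miR-96-3p and miR-211-3p had none in any library. miR-204-3p was the only other arm that could be tested, with 8, 523 and 197 counts in the cell libraries and 65, 41 and 0 in those of EV. At 131 and 157 CPM in whole cell replicates 2 and 3 it was above miR-183-5p in both and above miR-182-5p in replicate 3. Its log2 fold change was -2.15 with a standard error of 1.77 (edgeR adjusted p = 0.444), and the groups overlapped.

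As a share of both arms of its hairpin, miR-204-3p made up 0.145% in whole cell replicate 1 (95% Wilson interval 0.0736% to 0.286%), 1.64% in replicate 2 (1.5% to 1.78%) and 2.02% in replicate 3 (1.76% to 2.32%). In EV it was 2.77% in replicate 1 (2.18% to 3.51%) and 0.754% in replicate 2 (0.556% to 1.02%), with an upper limit of 0.0394% in replicate 3. Whole cell replicate 1 thus had the most miR-204-5p and the least miR-204-3p of the whole cell libraries, on the CPM scale.

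miR-1271-5p, which has the seed of miR-96-5p, was more abundant than miR-96-5p in every whole cell library. It had 45, 989 and 300 counts in the cell libraries and 77, 82 and 0 in those of EV. Its log2 fold change was -2.61 with a standard error of 1.60 (edgeR adjusted p = 0.299), and without the filter on low counts it was -2.94 and passed the limit (edgeR adjusted p = 0.0485). miR-1271-5p and miR-96-5p together were at 139, 255 and 246 CPM in the cell libraries and at 62.8, 84.9 and 0 CPM in those of EV (two-sided exact permutation test, p = 0.1). With miR-182-5p added, which shares bases 2 to 7 with both, the sum was 379 ± 27.7 CPM in whole cells and 816 ± 75.2 CPM in EV (SD, n = 3 in each, two-sided exact permutation test, p = 0.1). Within this shorter seed, EV libraries were above whole cell libraries for miR-182-5p and below them for the sum of miR-96-5p and miR-1271-5p.

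The letters CCCU and GGAG, which have been described as motifs of miRNAs sorted into vesicles, were searched on the RNA strand of the RefSeq mature sequences. CCCU was found in miR-204-5p and miR-211-5p, within the seed, and in 10.8% of the 390 tested miRNAs that had a sequence. GGAG was found in no member and in 10.5% of those 390.

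The tested miRNAs whose pattern was most like that of each member were taken by Pearson's correlation of log2(CPM + 4) over the 6 libraries, as a description, since the libraries share the difference between the groups. For miR-182-5p these were miR-411-5p (r = 0.998), miR-16-5p (0.997) and miR-10a-5p (0.995). For miR-183-5p they were miR-382-3p (0.998), miR-7641 (0.994) and miR-628-5p (0.989). For miR-204-5p they were miR-15b-5p (0.982), let-7d-5p (0.977) and miR-4521 (0.974), of which miR-4521 was at 0 in all EV libraries. For miR-96-5p they were miR-196b-5p (0.982), miR-29b-2-5p (0.975) and miR-2116-3p (0.930), which also had most of their EV counts in replicate 2. The correlation between miR-182-5p and miR-183-5p was 0.938, whereas miR-96-5p had correlations of -0.39 with miR-182-5p and -0.41 with miR-183-5p. Those of miR-204-5p were -0.912 with miR-182-5p, -0.987 with miR-183-5p and 0.27 with miR-96-5p.

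Lists of miRNAs known from Müller glia, the labelled cell type, and from other cell types were read beside the members. The 8 of Müller glia were miR-125a-5p, miR-125b-5p, miR-99a-5p, miR-100-5p, miR-9-5p, miR-23a-3p, miR-135a-5p and let-7b-5p. All were tested, and together they were at 250244 to 306783 CPM in whole cells and 176972 to 242595 CPM in EV. With edgeR 0 of the 8 passed an adjusted p of 0.05, against 123 of all 430 tested miRNAs. An unadjusted p below 0.05 was found for 2 of the 8, against 35.8% of all tested miRNAs. With DESeq2 2 of the 8, miR-125b-5p and miR-23a-3p, were lower in EV at an adjusted p below 0.05, against 34.7% of all, and the median log2 fold change of the 8 in edgeR was 0.19. The 7 miRNAs of retinal neurons were miR-124-3p, miR-9-5p, miR-9-3p, miR-7-5p, miR-128-3p, miR-138-5p and miR-129-5p, so that miR-9-5p was in both lists. miR-124-3p, the most typical of neurons, had no count in any library. Of the 6 tested, miR-9-3p was higher in EV by a log2 value of 5.80 (edgeR adjusted p = 0.00209). miR-129-5p, at 27.8, 50.4 and 35.9 CPM in whole cells and without counts in EV, was lower (edgeR adjusted p = 0.0121). Since miR-129-5p passed the filter through whole cells alone, a call of lower in EV was nearly fixed in advance for it. These calls were 1 of the 6 in each direction, against 14.7% of all tested miRNAs for higher and 14.0% for lower. The median log2 fold change of this list was 0.40.

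The 7 miRNAs of epithelia were miR-184, miR-187-3p, miR-200a-3p, miR-200b-3p, miR-200c-3p, miR-141-3p and miR-429, and 5 were tested. miR-184, which is abundant in cornea, lens and pigment epithelium, had 2, 37 and 16 counts in the cell libraries and 0, 71 and 0 in those of EV, the same pattern over EV libraries as miR-96-5p. miR-141-3p was higher in EV, with 2, 2 and 1 counts in the cell libraries and 26, 119 and 153 in those of EV (edgeR adjusted p = 0.0403). At 5.05, 0.501 and 0.799 CPM in the cell libraries, it passed the filter mainly through EV, so that a call of higher in EV was favoured in advance. That call was lost in 5 of 10 alternatives, with adjusted p values of 0.0541 with RLE factors, 0.0532 with library totals, 0.0712 without the filter, and 0.297 and 0.238 without whole cell replicates 2 and 3. miR-200b-3p, of the same family of epithelial miRNAs, was lower, with 8, 32 and 13 counts in the cell libraries and no count in EV (edgeR adjusted p = 0.0109). As miR-200b-3p passed the filter through whole cells alone, a call of lower in EV was nearly fixed in advance for it. The calls in this list were 1 of the 5 tested in each direction, against 14.7% of all tested miRNAs for higher and 14.0% for lower. The list together was at 73.2 to 124 CPM in whole cells and 109 to 142 CPM in EV, and its median log2 fold change was 0.04.

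Of 8 markers of blood and serum, 4 were tested, and miR-142-5p, miR-144-3p, miR-223-3p and miR-150-5p were not. In edgeR 3 of the 4 were higher in EV at an adjusted p below 0.05, as were miR-182-5p and miR-183-5p, against 14.7% of all tested miRNAs. The 3 were miR-451a and miR-142-3p of blood cells and miR-122-5p of liver and serum. miR-451a and miR-142-3p, with at most 1 count in a whole cell library, passed the filter only through EV. A call of higher in EV was thus nearly fixed in advance for them. The median log2 fold change over the 4 was 7.02. The call of miR-122-5p was lost without whole cell replicate 2 (edgeR adjusted p = 0.0837) or 3 (0.0569). With miR-451a, at 0 in all cell libraries, set at its bound against 3 counts a library, the median was 4.45. The summed level of the list was 172 to 1174 CPM in whole cells and 1718 to 2403 CPM in EV, most of it miR-486-5p in every library. miR-451a, miR-142-5p and miR-144-3p were at 0 in all whole cell libraries, and miR-142-3p, miR-223-3p and miR-150-5p were counted in only some of them. miR-486-5p and miR-122-5p were counted in every whole cell library, and so were miR-182-5p and miR-183-5p. The part of RNA from blood or serum in the levels of the members was not tested.

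**Figure D4:**
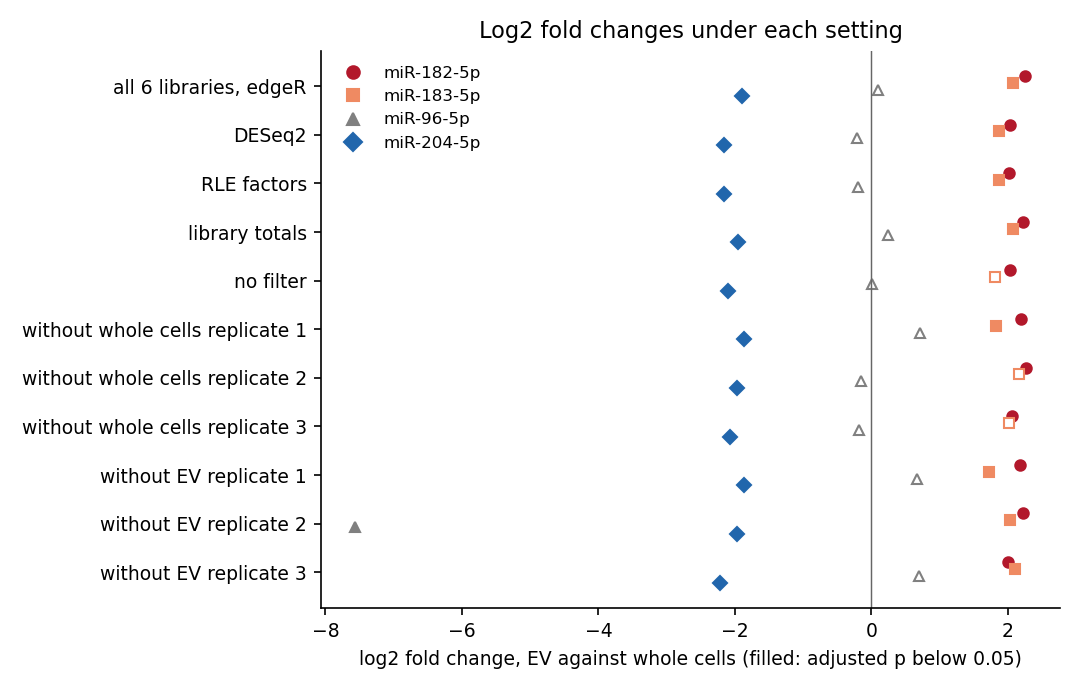
Log2 fold change of EV against whole cells (horizontal axis) for 4 members in the edgeR fit of all libraries and under 10 alternatives, with filled points for an adjusted p below 0.05. miR-182-5p and miR-204-5p are filled in every row, miR-183-5p is open in 3 rows, and miR-96-5p moves from 0.71 to -7.57, the latter without EV replicate 2.

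In all 10 alternatives miR-182-5p was higher in EV, by log2 values of 2.0 to 2.27, and miR-204-5p was lower, by -2.23 to -1.87, each at an adjusted p below 0.05. miR-183-5p was higher in each, by 1.73 to 2.16.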

How the data were processed

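Small RNA libraries, made with the QIAseq miRNA kit, were compared between 3 whole cell and 3 EV samples. The authors trimmed adapters, aligned reads and deposited raw counts for each mature miRNA, and the file headers give Bowtie 1, miRBase release 20 and stranded counting in featureCounts 1.5.0-p1, where the labels name Bowtie2. No step that counts molecular identifiers is named in the sources used here. Samples were grouped by the labelled fraction. Libraries within a group differed beyond sampling noise (chi-square per degree of freedom at least 43.0).

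Counts were tested with edgeR 4.0.16 in R 4.3.3 (TMM, quasi-likelihood, Benjamini-Hochberg). The standard errors given were derived from that test, as the size of the log2 fold change over the square root of its F statistic. DESeq2 1.42.0, RLE factors, library totals, no filter and each library left out were alternatives. Sums and ratios were tested by exact permutation in scipy 1.17.1. Both tools were run on simulated data, where recovery was required only of edgeR, at a lower spread between replicates than was fitted in these data. Log2 levels used a pseudocount of 4 on TMM-scaled CPM. Figures used matplotlib 3.10.9. Sequences were those of RefSeq GRCh38.p14, matched by name for 2262 of 2576 miRNAs.

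The members and the lists were chosen with earlier results of these data known. Named miRNAs were the members, the other arms, miRNAs with a member's seed and at least 1 count, the 3 most alike miRNAs of each tested member, and the lists. The motif search was added after the counts had been seen.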

Additional observations from a re-analysis of the deposited data

How the results depend on the processing

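The number of miRNAs past both limits, 25 with edgeR, was 72 with DESeq2, 45 without the filter on low counts and 123 at an adjusted p below 0.05 with no limit on the fold change. It ran from 0 to 31 with each library left out. It was 0 when whole cell replicate 3 was left out (121 at an unadjusted p below 0.05) and 0 when EV replicate 2 was (169). It was 16, 7 and 11 without whole cell replicates 1 and 2 and EV replicate 1 (all edgeR, since DESeq2 was run on all libraries only). The log2 fold change of miR-183-5p lost the limit of 0.05 without the filter, at 1.82, and over left-out libraries it ran from 1.73 to 2.16. That of miR-96-5p reversed to -0.22 with DESeq2, which gave no p for it, and to -0.19 with RLE factors, and over left-out libraries it ran from -7.57 to 0.71. The lowest of these rests on EV libraries at 0 and is no bound. With RLE factors the median of all tested miRNAs was -0.41. The fold changes of miR-182-5p and miR-204-5p kept their direction and their side of 0.05 in all 10 alternatives, and the sums, the ratio and the share kept their direction. Of 9 other miRNAs with a fold change or call in the text, whose alternatives were chosen after seeing the data, miR-141-3p lost its call in 5 of 10, miR-122-5p in 2, and miR-1271-5p gained one in 1, and none changed sign. Of the other listed miRNAs, miR-125b-5p, miR-23a-3p and miR-138-5p each gained a call in 3 of 10, and miR-9-5p and miR-184 in 1, without EV replicate 2. The fold change of miR-184, near 0, changed sign in 5. The difference in the share of miR-182-5p ran from 0.0574 to 8.21 percentage points over left-out libraries, and that of the pair from -8345 to -5218 CPM. Without the filter miR-211-5p was at -1.98 (edgeR adjusted p = 0.301), on 6 counts in all. The other alternatives planned for it were not run, because they keep the filter. No paired analysis was possible because the whole cell and EV samples share no passage number. Where the cause of a change is not given, the cause was not tested.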

Other observations

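Among the 390 tested miRNAs with a RefSeq sequence, the 42 that hold the letters CCCU, miR-204-5p among them, had a median log2 value for EV over whole cells of -2.16, and the others had a median of -0.05. For GGAG, held by 41, the medians were -0.05 with the letters and -0.33 without. These values were computed after the counts had been seen and are given as a description, and base composition was not taken into account.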
